A study of Mus musculus with 6 samples.

Results

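Cajal-Retzius cells are the earliest neurons of the cortical surface, and their genes were compared between E13.5 cortex of wild-type mice (WT) and E13.5 cortex from which Ybx1 was conditionally deleted (cKO). The set was fixed by gene symbol and held 10 of the 17348 genes listed. These were Reln and Cxcl12, which encode secreted signals, the transcription factor genes Trp73, Lhx1, Lhx5, Ebf2, Ebf3 and Nhlh2, the calcium-binding protein gene Calb2, and Cxcr4, the receptor for Cxcl12. All 10 passed the filter on low counts, which left 13340 genes for testing.

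Ybx1 encodes an RNA-binding protein, and the study asked how cortical progenitors depend on it. RNA was extracted with Trizol from cortex, made into mRNA libraries and sequenced on a DNBSEQ platform, with 3 libraries per genotype. The cKO embryos carried Nestin-Cre and floxed Ybx1 alleles (Nestin-Cre, Ybx1 fl/fl). The WT libraries came from embryos labelled wild type. The study describes its controls elsewhere as Ybx1 fl/fl littermates without Cre, and the labels do not say whether the WT embryos of these libraries carried floxed alleles. Neither genotype received a treatment. Nestin-Cre is active in neural progenitors and is inherited by their progeny, whereas most cells of the meninges and of blood vessels are not made by these progenitors. The study's immunostaining found Ybx1 protein nearly absent from cKO cortex from E13.5 onwards, and not yet lost at the earlier stage it stained. The source label of all 6 libraries is brain, and the titles narrow it to cortex.

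Cajal-Retzius cells are born at the borders of the developing cortex, among them the cortical hem, the septum and the ventral pallium, and spread beneath the meninges through the marginal zone. They secrete Reelin, the product of Reln, which binds the receptors Lrp8 and Vldlr on migrating neurons and leads to phosphorylation of the adaptor Dab1 in them. The hem-derived cells carry the p53 family member Trp73. Meningeal cells release the chemokine Cxcl12, which holds Cajal-Retzius cells at the surface through Cxcr4, and Ackr3 is a second receptor that removes Cxcl12 from the surroundings. In the embryonic cortex Cxcl12 is also made by vessels and by progenitors of the subventricular zone, and Cxcr4 is also carried by migrating interneurons.

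On the mouse assembly GRCm38.p6 of RefSeq, Reln spans chr5:21884454-22344705 on the minus strand and is the longest of the 10 genes at 460252 bases. Trp73 lies at chr4:154056249-154139875 on the minus strand. Cxcl12 lies at chr6:117168535-117181368 on the plus strand, and Cxcr4 at chr1:128588199-128592299 on the minus strand. The other six span chr11:84517975-84525534 on the minus strand (Lhx1), chr5:120431886-120441457 on the plus strand (Lhx5), chr14:67233292-67430952 on the plus strand (Ebf2), chr7:137193671-137322805 on the minus strand (Ebf3), chr3:102010111-102015492 on the plus strand (Nhlh2) and chr8:110142526-110168212 on the minus strand (Calb2). Exons of a noncoding or predicted gene on the opposite strand overlap exons of Reln, Trp73, Lhx5, Ebf2 and Ebf3 in the GENCODE M21 annotation. Whether counting used strand is not given in the sources used here, so reads of those partners cannot be separated from reads of these 5 genes.

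The sequences shown are the 250 bases before the start site of the signal, the receptor and the p53 family gene around which the comparison turns. They were taken from the RefSeq promoter table of GRCm38.p6, in which 7 of the 10 genes have an entry and Lhx5, Ebf2 and Calb2 have none. Each is written 5′ to 3′ on the strand of its gene. Capitals mark matches to the E-box CANNTG, the general recognition sequence of basic helix-loop-helix factors such as the one that Nhlh2 encodes.
Reln, chr5:22344706-22344955, minus strand: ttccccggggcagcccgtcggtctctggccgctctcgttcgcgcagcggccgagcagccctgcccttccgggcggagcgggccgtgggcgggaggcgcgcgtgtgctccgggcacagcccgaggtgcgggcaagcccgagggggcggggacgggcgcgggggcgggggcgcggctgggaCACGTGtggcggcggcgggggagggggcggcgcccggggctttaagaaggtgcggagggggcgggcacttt
Trp73, internal start site, chr4:154097174-154097423, minus strand: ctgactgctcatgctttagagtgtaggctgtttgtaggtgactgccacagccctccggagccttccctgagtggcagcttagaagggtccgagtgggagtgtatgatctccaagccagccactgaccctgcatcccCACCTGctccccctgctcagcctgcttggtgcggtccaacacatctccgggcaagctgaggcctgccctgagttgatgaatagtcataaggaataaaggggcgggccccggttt
Cxcl12, chr6:117168285-117168534, plus strand: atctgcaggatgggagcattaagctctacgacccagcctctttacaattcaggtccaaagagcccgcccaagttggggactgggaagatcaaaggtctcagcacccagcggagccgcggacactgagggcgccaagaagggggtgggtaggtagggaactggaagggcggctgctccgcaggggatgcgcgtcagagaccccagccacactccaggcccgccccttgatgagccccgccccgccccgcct
Cxcr4, chr1:128592300-128592549, minus strand: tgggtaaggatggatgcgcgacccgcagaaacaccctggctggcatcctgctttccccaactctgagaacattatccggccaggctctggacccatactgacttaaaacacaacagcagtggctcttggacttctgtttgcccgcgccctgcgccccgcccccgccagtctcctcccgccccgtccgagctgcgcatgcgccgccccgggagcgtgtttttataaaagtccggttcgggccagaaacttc

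3 motifs were searched on both strands of the windows before the start site. CCAAT, the box after which the Y-box family of proteins is named, was in 2 of the 8 windows of the 7 genes (Lhx1 and Nhlh2) and in 33.8% of 32851 mouse promoter windows. CANNTG was in 4 of the 8, those of Reln, Nhlh2 and both start sites of Trp73, and in 66.2% of all windows. TAATTA, a core bound by many homeodomain proteins, was in none of the 8 and in 4.84% of all. The single match in the Reln window read CACGTG. Of its bases 80.0% were G or C, against a median of 52.4% over all windows. The internal start site of Trp73 lies within the gene, and its window also holds an exon of the antisense gene Trp73os. The counts are per gene and do not separate the start sites of Trp73.

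The libraries held 15907486 to 16282921 estimated counts and detected 15677 to 16296 of the genes listed. Values are given as CPM, that is, counts scaled by TMM factors and by library total, and a count of 3, the upper limit that 0 counts allow, corresponds to 0.181 to 0.188 CPM. Ybx1, measured as a check of the labels, was at 1021, 528 and 1220 CPM in WT replicates 1, 2 and 3 and at 83.1, 117 and 147 CPM in the corresponding cKO libraries. WT replicate 2 thus had less Ybx1 than the other WT libraries and more than any cKO library. Leaving it out moved the log2 fold change (cKO against WT) of Cxcl12 from 0.33 to 0.22. That of Ebf2 stayed at -0.33. Those of the other genes of the set moved away from 0, for Reln from -0.37 to -0.42. cKO replicate 3 carried genes of skin and connective tissue. A list of 10 epidermis markers summed to 330 CPM there against 3.69 to 5.15 CPM in the other libraries, and Krt5 and Krt14, 2 of its defining keratins, were at 0 in 4 libraries and at 0.0625 CPM in WT replicate 3. The cortex markers Emx1, Neurod6 and Bcl11b were present in every library. The sum of 11 cortical neuron markers was highest in WT replicate 1 (3213 CPM) and cKO replicate 1 (3366 CPM), and lay between 2433 and 2891 CPM in the other 4.

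Of the 10 genes, 8 had a lower mean fitted level in cKO and 2, Cxcl12 and Calb2, a higher one, with a median log2 fold change of -0.18 against 0.0019 over all genes tested. The median was -0.06 without WT replicate 1, -0.11 without cKO replicate 2 and -0.26 without cKO replicate 1. None was called at a Benjamini-Hochberg adjusted p under 0.05 in edgeR's quasi-likelihood test, which called 0% of all genes, and the adjusted p of all 10 was 0.99995. That test did not call the deleted gene Ybx1 either (adjusted p = 0.128), so the lack of a call does not show that a gene was unchanged. At an unadjusted p under 0.05, 1 gene was lower in cKO (Reln), against 1.81% of all genes, and 0 were higher, against 1.75%. The other tools also called none of the 10, while over all genes DESeq2 called 4 (0.03%), limma-voom 0 and limma-voom with quality weights 3 (0.0225%). Negative fold changes made up 49.2% of all genes. In the plot of the level in every library, Reln was the only gene whose cKO libraries all lay below its WT libraries, a separation found in 4.83% of all genes. With 3 against 3 libraries an exact two-sided permutation test of 1 gene cannot give a p below 0.1.

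**Figure D1:**
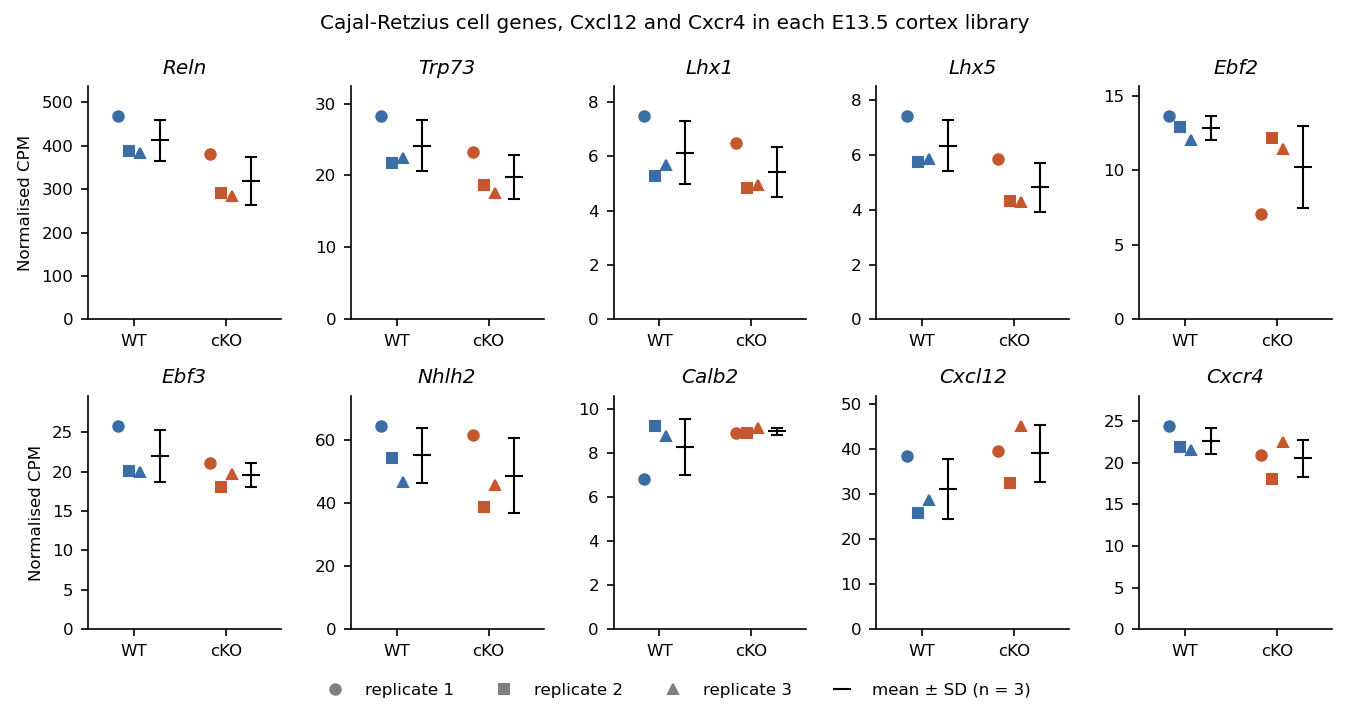
Normalised CPM (linear axes from 0) of the 10 genes in the 3 WT (blue) and 3 cKO (orange) libraries, with circles, squares and triangles for replicates 1, 2 and 3 and bars for the mean ± SD. Reln lies at 383 CPM or more in WT and at 382 CPM or less in cKO, while the ranges of the other 9 genes overlap.

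**Figure D2:**
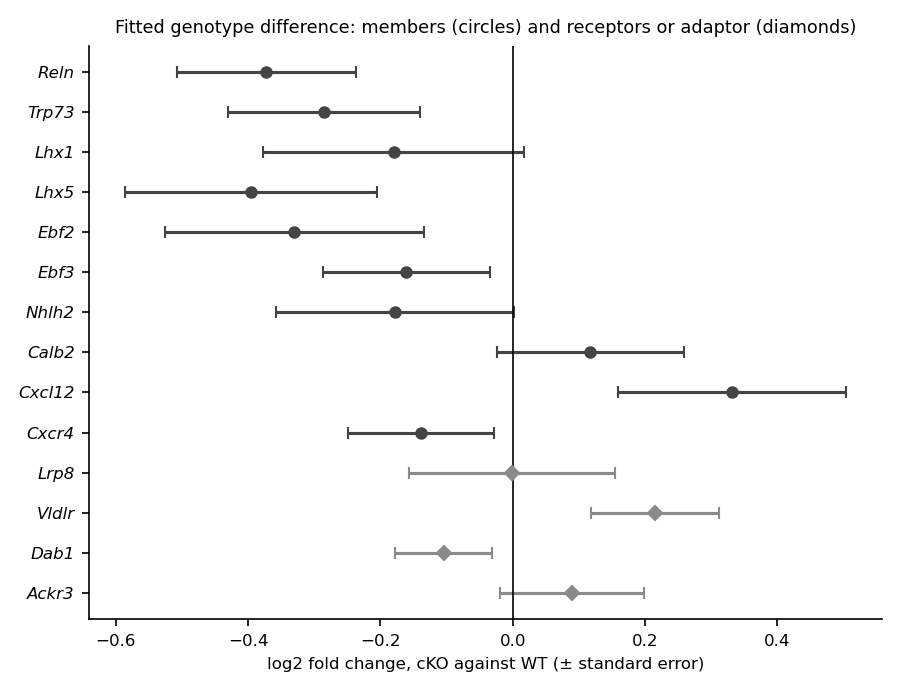
Fitted log2 fold change of cKO against WT with its standard error (horizontal bars) for the 10 genes (circles) and for Lrp8, Vldlr, Dab1 and Ackr3 (diamonds). The points run from -0.40 for Lhx5 to 0.33 for Cxcl12, and Lrp8 lies closest to 0.

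Reln was the most abundant of the 10 genes. It was measured at 468, 387 and 383 CPM in WT replicates 1, 2 and 3 and at 382, 291 and 284 CPM in cKO replicates 1, 2 and 3. The cKO libraries lay below the WT libraries, but the lowest WT and highest cKO library were only at 383 and 382 CPM, and the groups overlapped with upper-quartile factors. The mean was 413 ± 47.7 CPM in WT and 319 ± 54.5 CPM in cKO (SD, n = 3 each), so cKO stood at 77.2% of WT. The log2 fold change was -0.37 (SE 0.135, unadjusted p = 0.0250 and adjusted p = 0.99995, edgeR's quasi-likelihood test), the 203rd lowest p of 13340. The p depended on single libraries. It was 0.0347 and 0.0342 without WT replicate 2 or 3, and 0.00140 without cKO replicate 1, where the log2 fold change was -0.51. Without WT replicate 1, cKO replicate 2 or cKO replicate 3 it was 0.0842, 0.0838 and 0.0804, with log2 fold changes of -0.27, -0.31 and -0.30. Without both WT replicate 2 and cKO replicate 3 the log2 fold change was -0.34 and p was 0.0885. In bulk tissue, fewer cells of a type and less RNA per cell cannot be told apart.

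Replicate 1 of each genotype, which had the higher sum of cortical neuron markers, also had the higher Reln level of its genotype. Each gene was therefore also expressed as a percent of the summed CPM of the 11 neuron markers, a scale chosen after the values were seen. On that scale Reln was at 14.6, 14.7 and 13.3% in WT replicates 1, 2 and 3 and at 11.3, 11.5 and 11.7% in cKO replicates 1, 2 and 3. The WT mean was 14.2% ± 0.782 and the cKO mean 11.5% ± 0.163 (SD, n = 3 each), and the groups lay further apart than on the CPM scale. Trp73 was at 0.878, 0.823 and 0.776% in WT and at 0.690, 0.738 and 0.722% in cKO. Lhx5 was at 0.231, 0.218 and 0.203% in WT and at 0.174, 0.171 and 0.176% in cKO. The cKO libraries of these 3 genes all lay below the WT libraries, a separation found in 0.862% of all genes. Because the Reln values of these same libraries led to the scale, that share does not measure how unusual the separation is. None of the 10 lay wholly above WT, which 2.98% of all genes did, and the ranges of the other 7 overlapped. The plot relative to neuron markers shows these values. What part the number of neurons in a sample had in the CPM values was not tested.

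**Figure D3:**
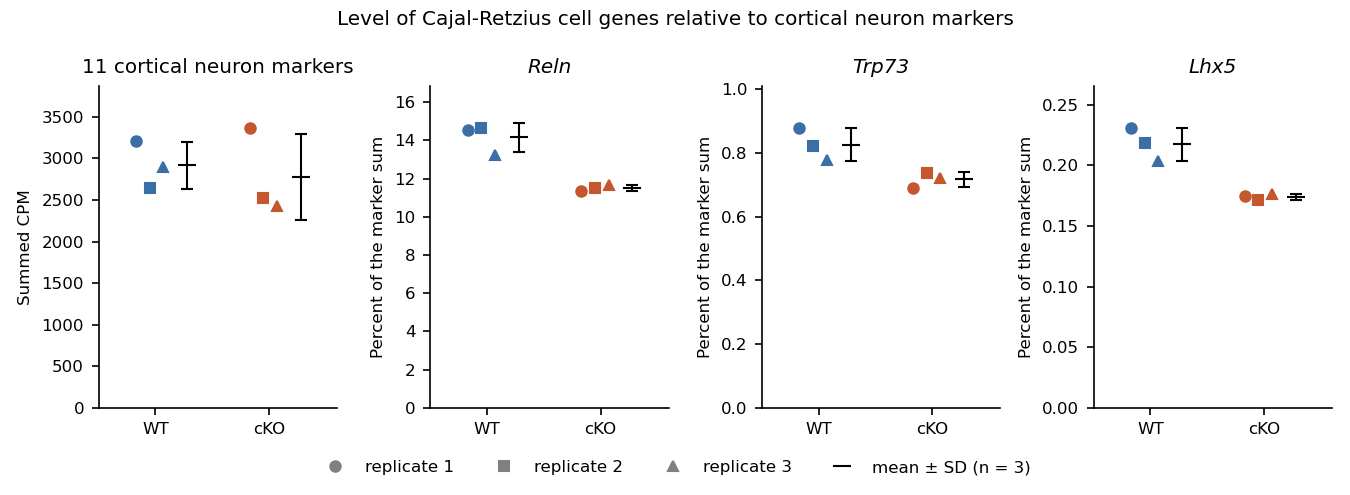
Summed CPM of 11 cortical neuron markers (left) and Reln, Trp73 and Lhx5 as a percent of that sum (linear axes from 0) in the 3 WT (blue) and 3 cKO (orange) libraries, with circles, squares and triangles for replicates 1, 2 and 3 and bars for the mean ± SD. The marker sum is highest in replicate 1 of each genotype, and the 3 ratios are lower in every cKO library than in every WT library. The scale was chosen after the values of these libraries were seen.

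All 6 transcription factor genes had a negative fold change, and none passed the test. For Lhx1, Ebf3 and Nhlh2 that direction rested largely on WT replicate 1, without which their log2 fold changes were -0.01, -0.03 and -0.05. For Nhlh2 it rested as much on cKO replicate 2, without which the log2 fold change was -0.04. Trp73 was at 28.2, 21.7 and 22.4 CPM in WT and at 23.2, 18.6 and 17.6 CPM in cKO. Only cKO replicate 1 reached into the WT range, and the mean went from 24.1 ± 3.54 to 19.8 ± 3.00 CPM (SD, n = 3 each), for which the log2 fold change was -0.29 (SE 0.145). The LIM homeodomain gene Lhx5 was at 7.41, 5.76 and 5.88 CPM in WT and at 5.87, 4.33 and 4.28 CPM in cKO. Again only cKO replicate 1 overlapped the WT libraries, and the means were 6.35 ± 0.922 and 4.83 ± 0.901 CPM with a log2 fold change of -0.40 (SE 0.190), the lowest of the 10. The unadjusted p was 0.0857 for Trp73 and 0.0710 for Lhx5. Its relative Lhx1 was at 7.48, 5.27 and 5.69 CPM in WT and at 6.49, 4.83 and 4.95 CPM in cKO. Here replicate 1 was the highest library of both genotypes, and the log2 fold change was -0.18 (SE 0.197).

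The Ebf genes encode helix-loop-helix factors of early neurons, and Ebf2 and Ebf3 did not follow the same pattern over the libraries. Ebf2 was at 13.6, 12.9 and 12.1 CPM in WT and at 7.05, 12.2 and 11.5 CPM in cKO. Its difference rested mostly on cKO replicate 1, the cKO library with the highest neuron marker sum, while the other cKO libraries lay within or just below the WT range. The log2 fold change was -0.33 (SE 0.196) over all libraries and -0.11 without cKO replicate 1. Ebf3 was at 25.7, 20.1 and 19.9 CPM in WT and at 21.1, 18.1 and 19.7 CPM in cKO, with a log2 fold change of -0.16 (SE 0.126). Nhlh2, which encodes a basic helix-loop-helix factor of newly formed neurons, was at 64.4, 54.2 and 46.9 CPM in WT and at 61.8, 38.9 and 45.7 CPM in cKO. Both groups spread widely, with means of 55.2 ± 8.79 and 48.8 ± 11.8 CPM (SD, n = 3 each) and a log2 fold change of -0.18 (SE 0.180). Unadjusted p-values were between 0.131 and 0.388 for Lhx1, Ebf2, Ebf3 and Nhlh2.

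Calb2 encodes calretinin, which is used as a marker of Cajal-Retzius cells and is also made by other early neurons and some interneurons. It was at 6.85, 9.23 and 8.81 CPM in WT and at 8.92, 8.91 and 9.17 CPM in cKO. WT replicate 1, which was the highest library for Reln, was the lowest for Calb2, and the groups overlapped. The log2 fold change was 0.12 (SE 0.141, unadjusted p = 0.431, edgeR's quasi-likelihood test). A list of 20 interneuron and ventral forebrain markers summed to 234, 226 and 301 CPM in WT and to 327, 339 and 313 CPM in cKO. Of its 16 genes tested, 6 were higher and 0 lower in cKO at an unadjusted p under 0.05, beside 1.75% and 1.81% of all genes. What part these cells had in the Calb2 level was not tested.

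Cxcl12 was at 38.5, 25.8 and 28.8 CPM in WT and at 39.6, 32.5 and 45.0 CPM in cKO. WT replicate 1 lay inside the cKO range, and cKO replicate 3, the library with skin and connective tissue genes, was the highest. The mean was 31.0 ± 6.63 CPM in WT and 39.0 ± 6.28 CPM in cKO (SD, n = 3 each), which is 126% of WT. The log2 fold change was 0.33 (SE 0.172, unadjusted p = 0.0906 and adjusted p = 0.99995, edgeR's quasi-likelihood test). Single libraries moved it, to 0.22 without cKO replicate 3 or without WT replicate 2. In the same test it was 0.52 (unadjusted p = 0.0126) without WT replicate 1 and 0.45 (unadjusted p = 0.0381) without cKO replicate 2. Without both WT replicate 2 and cKO replicate 3 it was 0.10 (SE 0.181, unadjusted p = 0.596).

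Markers of tissues that also make Cxcl12 were read beside it, as the plot of Cxcl12 with vascular and connective tissue genes shows. A list of 18 meninges genes summed to 73.8, 82.4 and 77.3 CPM in WT and to 66.7, 105 and 706 CPM in cKO. Most of the 706 CPM in cKO replicate 3 came from the collagens Col3a1 (181 CPM), Col1a2 (144 CPM) and Col1a1 (128 CPM), which many connective tissues share. Of the 9 genes tested, 4 were higher in cKO at an unadjusted p under 0.05, beside 1.75% of all genes. These were the 3 collagens and Pdgfra, and their difference was mostly that of cKO replicate 3. In cKO replicate 1 all 4 lay within the WT range. In cKO replicate 2 the collagens lay above WT, at 3.64 to 6.02 CPM, and Pdgfra within it. Pdgfra was at 0.749, 0.753 and 32.4 CPM in cKO replicates 1, 2 and 3. The more restricted Foxc2, Aldh1a2, Slc6a13 and Ranbp3l were at 0 to 3 counts in every library. Foxc1 was at 2.51, 0.867 and 1.25 CPM in WT and at 1.87, 1.69 and 1.09 CPM in cKO, so cKO replicate 3 was not high for it. Foxd1, Tbx18 and Crabp2 were likewise not highest in that library. Dcn (26.7 CPM), Lum (37.3 CPM), Ogn (11.4 CPM), Bgn (44.0 CPM), Twist1 (16.8 CPM) and Prrx1 (58.1 CPM) were highest there, as were Pdgfra and the collagens. The sum of 14 endothelium and pericyte genes was 205, 141 and 162 CPM in WT and 165, 164 and 206 CPM in cKO. That sum was lowest in WT replicate 2, where Cxcl12 was also lowest, and highest in cKO replicate 3 and WT replicate 1. None of these 14 genes differed at an unadjusted p under 0.05, beside 1.81% of all genes lower and 1.75% higher. What part meninges, vessels or other tissue had in the Cxcl12 level was not tested.

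**Figure D4:**
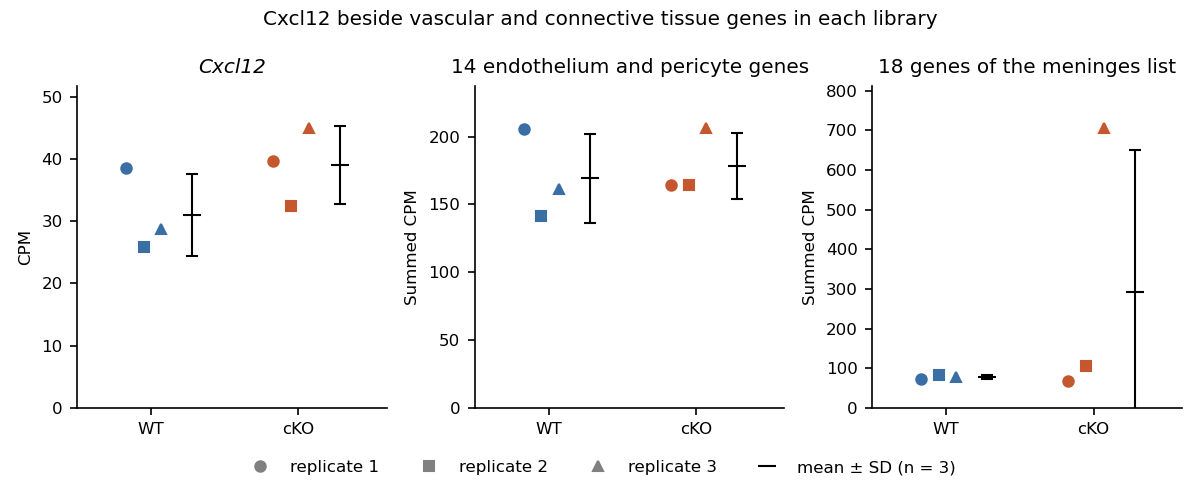
CPM of Cxcl12 (left), summed CPM of 14 endothelium and pericyte genes (middle) and of 18 genes of the meninges list (right) in the 3 WT (blue) and 3 cKO (orange) libraries, with circles, squares and triangles for replicates 1, 2 and 3, bars for the mean ± SD and linear axes from 0. cKO replicate 3 is the highest library in all 3 panels, and its meninges list sum of 706 CPM makes the lower end of that SD bar fall below the axis.

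The fold changes of the Cxcl12 receptors were smaller than that of Cxcl12. Cxcr4 was at 24.4, 21.9 and 21.5 CPM in WT and at 21.0, 18.1 and 22.5 CPM in cKO. Only cKO replicate 3 lay among the WT libraries, and the log2 fold change was -0.14 (SE 0.110, unadjusted p = 0.245, edgeR's quasi-likelihood test). Ackr3 was at 30.8, 33.3 and 29.2 CPM in WT and at 36.9, 29.0 and 33.4 CPM in cKO, with a log2 fold change of 0.09 (SE 0.109). The groups overlapped for both receptors. In a list of 22 ligands, receptors, G proteins, kinases and arrestins of this pathway, 20 were tested, with a median log2 fold change of 0.024. At an unadjusted p under 0.05, 0 were lower and 1 was higher, beside 1.81% and 1.75% of all genes.

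The gene that was higher was the chemokine Cxcl14, at 0.314, 0.929 and 1.5 CPM in WT and at 1.31, 1.004 and 104 CPM in cKO, so its difference was that of cKO replicate 3. Dpp4, a peptidase that cleaves Cxcl12, was at 0.503, 0.744 and 0.688 CPM in WT and at 0.749, 0.878 and 3.20 CPM in cKO. Every cKO library lay above the WT libraries, which was found in 4.21% of all genes. The margin was narrow for cKO replicate 1, and cKO replicate 3 stood apart. The arrestin gene Arrb1 had a log2 fold change of -0.18 (SE 0.0865) and the receptor kinase gene Grk6 one of -0.08 (SE 0.0632), neither at an unadjusted p under 0.05.

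On the receiving side of Reelin, no receptor or adaptor had a fold change as negative as that of Reln. Lrp8 was at 455, 355 and 360 CPM in WT and at 480, 343 and 346 CPM in cKO. As for the neuron markers, replicate 1 was the highest library of both genotypes, and the log2 fold change was -0.0016 (SE 0.156). Vldlr was at 46.0, 45.7 and 45.1 CPM in WT and at 59.8, 47.0 and 52.0 CPM in cKO. Every cKO library lay above the WT libraries, which was found in 4.21% of all genes, and the log2 fold change was 0.22 (SE 0.0963, unadjusted p = 0.0563, edgeR's quasi-likelihood test). Dab1 was at 199, 195 and 199 CPM in WT and at 199, 180 and 173 CPM in cKO, with a log2 fold change of -0.10 (SE 0.0736). Its cKO replicate 1 equalled the WT level and the other cKO libraries lay below it.

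Downstream of Dab1, Rapgef1, which encodes an exchange factor that activates Rap1, was at 296, 239 and 260 CPM in WT and at 238, 238 and 217 CPM in cKO. The cKO libraries lay below WT by a margin under 1 CPM, with a log2 fold change of -0.20 (SE 0.0940, unadjusted p = 0.0675, edgeR's quasi-likelihood test). Rap1b, one of the Rap1 genes, had a log2 fold change of 0.15 (SE 0.0741), and Cdk5, a kinase that acts in parallel with Reelin in migrating neurons, one of 0.13 (SE 0.0843). Over the whole list of 26 Reelin pathway genes, all were tested. At an unadjusted p under 0.05, 0 were lower or higher, beside 1.81% and 1.75% of all genes. Fold changes were negative for 14 and positive for 12, with a median of -0.0023 on the log2 scale.

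Other genes known from Cajal-Retzius cells, a list of 15 of which 14 were tested, did not share the negative direction. Of the 14, 7 had a negative and 7 a positive fold change, with a median of -0.03. The list is not specific to these cells. It holds Eomes (546 CPM in WT), whose product Tbr2 the study used to mark intermediate progenitors. It also holds Tbr1 (495 CPM in WT), used there for layer VI neurons. What part other cells had in the levels of this list was not tested. At an unadjusted p under 0.05, 0 were lower and 1 was higher, beside 1.81% and 1.75% of all genes. The higher gene was Ndnf, a secreted factor gene of marginal zone neurons, at 3.20, 3.04 and 4.06 CPM in WT and at 3.87, 7.28 and 5.07 CPM in cKO. Its highest WT library exceeded its lowest cKO library, and the log2 fold change was 0.65 (SE 0.259, unadjusted p = 0.0358, edgeR's quasi-likelihood test). Ebf1, of the same family as Ebf2 and Ebf3, was at 6.53, 5.20 and 5.94 CPM in WT and at 6.30, 8.09 and 8.45 CPM in cKO. Its log2 fold change was 0.37 (SE 0.166, unadjusted p = 0.0567), opposite in sign to those of its relatives. Cnr1, the cannabinoid receptor gene, had a log2 fold change of -0.20 (SE 0.133) and the zinc finger gene Zic5 one of -0.23 (SE 0.174).

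Genes of the places where Cajal-Retzius cells are born, such as Wnt and Bmp ligands of the hem, were a list of 18, of which 13 were tested. At an unadjusted p under 0.05, 0 differed, beside 1.81% of all genes lower and 1.75% higher. Their summed level was 119, 104 and 95.9 CPM in WT and 99.8, 93.1 and 163 CPM in cKO, highest in cKO replicate 3. Bmp7 was at 22.1 CPM in cKO replicate 3 and at 5.74 to 8.98 CPM in the other libraries. Dbx1, a marker of progenitors of the ventral pallium and septum, had a log2 fold change of 0.65 (SE 0.458), and the ventral pallium gene Sfrp2 one of 0.17 (SE 0.138). The hem gene Rspo3 had one of -0.24 (SE 0.201). Fgf8, a signal of the septal region, was at 3 counts or fewer in every library. No tested gene of this list had WT and cKO groups that did not overlap.

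Transcript levels can be ranked between genes only per length, and the deposited TPM were used for that. In WT, Reln was the highest at 76.2 ± 12.5 TPM (SD, n = 3), followed by Nhlh2 at 44.7 ± 9.35, Cxcl12 at 31.7 ± 7.79 and Cxcr4 at 31.0 ± 3.55 TPM. Calb2 was at 14.8 ± 1.66, Trp73 at 11.5 ± 2.23 and Ebf3 at 10.6 ± 2.19 TPM. The lowest were Ebf2 at 5.65 ± 0.585, Lhx5 at 5.45 ± 1.06 and Lhx1 at 3.35 ± 0.809 TPM. Neighbours in this order that did not overlap between libraries were Reln and Nhlh2, Cxcr4 and Calb2, Ebf3 and Ebf2, and Lhx5 and Lhx1. The remaining neighbours overlapped. In cKO, Cxcl12 at 40.5 ± 7.53 and Nhlh2 at 39.0 ± 10.9 TPM exchanged places but overlapped, as they did in WT. Ebf3 at 9.67 ± 1.13 and Trp73 at 9.46 ± 1.71 TPM likewise exchanged places and overlapped in both genotypes, and Reln remained the highest at 59.1 ± 12.1 TPM.

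The genes whose log2 CPM ran most like that of Reln over the 6 libraries were Bach2 (Pearson r = 0.9997), Lhx5 (0.997), Vash1 (0.995), Nyap2 (0.995) and Synj2 (0.992), in a search over all genes tested. All 5 were highest in WT replicate 1. Bach2, a transcriptional repressor gene, was at 238, 210 and 211 CPM in WT and at 209, 176 and 173 CPM in cKO. Those of Cxcl12 were Daam2 (0.989), Abhd14b (0.985), Unc93b1 (0.984), Ptprc (0.982) and Fbxo32 (0.979). All 5 were highest in cKO replicate 3 and lowest in WT replicate 2. Ptprc, which encodes the leukocyte surface protein CD45, was at 1.07, 0.496 and 0.563 CPM in WT and at 0.936, 0.690 and 1.39 CPM in cKO. These correlations are descriptions over 6 points that share the genotype difference and the makeup of each library.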

How the data were processed

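The authors deposited 1 table of 17348 mouse genes with an Entrez identifier and a symbol per row. It held RSEM estimated counts, which the authors deposited without normalisation for depth (10.9% of values not whole), and deposited TPM, which are length-corrected shares of a common sum. Another 6 FPKM columns and 6 columns of group averages were not used. The submitters' processing notes name HISAT2 2.2.1, Bowtie2 2.4.5, RSEM 1.3.1 and GRCm38 (mm10). The gene annotation is not given in the sources used here. Groups and replicate numbers came from the sample titles, and the study's methods name no test for these libraries.

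Estimated counts were rounded and filtered with filterByExpr (minimum count 10, minimum total 15). TMM factors were 0.987 to 1.03. The test was edgeR's quasi-likelihood test (edgeR 4.0.16, R 4.3.3) over all genes tested, with genotype as the only term, Benjamini-Hochberg adjustment, two-sided (common dispersion 0.0169, prior degrees of freedom 3.92). Its step was tested on simulated data with 200 changed genes. Spearman correlations between libraries were 0.986 to 0.997, and no pair was a duplicate. The methods call the samples independent experiments; p-values measure the spread between these 3 libraries per genotype. The floor of 3 counts covers counting error only, whereas SDs and standard errors include the spread between libraries. Reads carried no molecular identifiers.

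The 10 genes and all lists were chosen with earlier results of these data known. Named genes were the 10, Lrp8, Vldlr, Dab1, Ackr3, Ybx1, up to 4 lowest-p genes of each pathway or Cajal-Retzius list, up to 4 most abundant or absent genes of each marker list, and the 5 genes most correlated with Reln and with Cxcl12 (log2 CPM, prior count 2). Emx1, Foxc1 and further genes of the meninges list were named outside this rule, after their values were seen. Other marker lists, summed over libraries, gave 526 to 909 CPM for 15 microglia and blood genes, 68.1 to 110 for 12 diencephalon genes and 93.7 to 154 for 12 sensory neuron genes. Of 5 diencephalon genes tested, 1 was lower (Lhx9) and 1 higher (Irx3) at an unadjusted p under 0.05, beside 1.81% and 1.75% of all genes. The same threshold was passed by 0 of 13 microglia and blood genes and 0 of 7 sensory neuron genes. Alternatives were DESeq2 1.42.0, scaling by RLE or upper-quartile factors, a filter of 10 counts in every library or none, limma-voom (limma 3.58.1) with and without quality weights, limma on log2(TPM + 1) and log2(TPM + 0.1), the replicate number as a block, each library left out, and WT replicate 2 with cKO replicate 3 left out. Leaving out both replicate 1 libraries was chosen after seeing the data.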

Additional observations from a re-analysis of the deposited data

How the results depend on the processing

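None of the 10 genes was called at an adjusted p under 0.05 in any of the 18 alternatives. Their fold changes kept their sign, but several came close to 0 when 1 library was left out, with log2 fold changes from -0.32 to -0.01 for Lhx1, -0.23 to -0.03 for Ebf3, -0.37 to -0.04 for Nhlh2 and 0.00057 to 0.20 for Calb2. Over all alternatives they were -0.51 to -0.27 for Reln, -0.41 to -0.15 for Trp73, -0.55 to -0.27 for Lhx5, -0.47 to -0.07 for Ebf2, -0.23 to -0.06 for Cxcr4 and 0.10 to 0.52 for Cxcl12. At an unadjusted p under 0.05, 1 gene was lower (Reln) as reported. The count was 3 with limma-voom and quality weights (Reln, Trp73 and Lhx5), where 4.92% of all genes were lower. It was 0 with limma on log2(TPM + 1) and on log2(TPM + 0.1), beside 1.26% and 1.25% of all genes. Without both WT replicate 2 and cKO replicate 3 it was 0 (1.06% of all genes), and without both replicate 1 libraries 2 (3.74%). When 1 library was left out it was 0 (without WT replicate 1, cKO replicate 2 or cKO replicate 3) to 4 (Reln, Trp73, Lhx5 and Nhlh2, without cKO replicate 1), with 0.873 to 3.57% of all genes lower. The count of higher genes was 0 as reported and 1 (Cxcl12) with quality weights (4.86% of all genes) and without both replicate 1 libraries (3.6%). It was 0 to 1 when 1 library was left out, with 0.895 to 4.23% of all genes higher. That 1 was Cxcl12, without WT replicate 1 or without cKO replicate 2. Groups that do not overlap are more frequent with fewer libraries. They were found for 1 of the 10 genes as reported (9.04% of all genes in either direction), 0 with upper-quartile factors (9.06%), 4 without both WT replicate 2 and cKO replicate 3 (26.9%), 7 without both replicate 1 libraries (37.4%) and 2 to 6 when 1 library was left out (13.7 to 24.8%). In the fit with a replicate block (replicate number as a term), 3 genes were lower (Reln, Trp73 and Lhx5) and 1 was higher (Cxcl12) at an unadjusted p under 0.05, beside 4.6% and 3.57% of all genes. The lowest p was 0.000198 for Reln (adjusted p 0.254, edgeR's quasi-likelihood test). Deviations of libraries with the same number correlated at 0.41, 0.31 and -0.02. Correlations between different numbers were not computed, so these values cannot decide whether the numbers pair the samples. The main fit assumed no pairing. The series description does not say which libraries shared a sequencing batch. Other limits are 3 libraries per genotype, the low Ybx1 level of WT replicate 2 and the skin and connective tissue genes of cKO replicate 3.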
